A study of Mus musculus with 37 samples.

Results

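Of the 52636 genes in the deposited count tables, 10 genes of the Wnt pathway were followed across all groups of the study. They were matched by symbol to their Ensembl identifiers: the Wnt ligand genes Wnt4, Wnt5a, Wnt5b and Wnt7b, the R-spondin gene Rspo1, the R-spondin receptor genes Lgr4 and Lgr5, and the feedback genes Axin2, Rnf43 and Znrf3. All 10 passed the filter on low counts, which left 18426 genes for testing. RNA had been sequenced from mature luminal cells, the differentiated inner layer of the mammary duct that includes the hormone-sensing cells, sorted by flow cytometry from mice. The mice were 8 weeks old, had been ovariectomized, and then carried pellets for 8 days with placebo, estradiol (E2), progesterone (P4) or, in the combined groups, E2 and P4. The estrogen receptor gene Esr1 was WT or carried the D542G or the Y541S mutation, so that 3 genotypes and 4 treatments made 12 groups, with 3 libraries in each of 11 groups and 4 libraries in WT P4. All groups share the ovariectomy, and the placebo groups are the controls. The labels do not say whether the mutant alleles were on 1 or both chromosomes, where they were expressed, or whether a library came from 1 animal or a pool. Biological replicates is the term of the design text, with no word on their source, so a p-value reflects the spread among these libraries, which may be technical.

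Wnt proteins are secreted, lipid-modified ligands. Some act through Frizzled and Lrp receptors to stabilise beta-catenin, and others, such as Wnt5a, act mostly through routes that do not need it. R-spondins bind Lgr receptors and remove the membrane ubiquitin ligases Rnf43 and Znrf3, which otherwise clear Frizzled receptors from the cell surface, while Axin2 is a scaffold of the complex that degrades beta-catenin and is itself a beta-catenin target. In the mammary gland Wnt4 is known as a paracrine signal that hormone-sensing luminal cells release under progesterone, and Rspo1 as a luminal product that acts on neighbouring cells.

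Esr1 was at 688 ± 130 CPM (counts-per-million, scaled by TMM, mean ± SD, n = 3) in WT placebo, 171 ± 25.9 in D542G placebo and 82.1 ± 25.1 in Y541S placebo. With hormone it was at 24.3 ± 14.8 CPM in WT E2, 537 ± 74.2 in WT P4 and 236 ± 106 in WT E2+P4. The mutant hormone groups had means of 62.8 to 105 CPM. WT and mutant alleles cannot be separated in these gene counts. The libraries held 25.69 to 52.24 M (mega) counts. All 8 markers of hormone-sensing luminal cells were detected in every group, with a summed level of 4840 to 7490 CPM per library in WT placebo. That sum was 812 to 1620 CPM in WT E2 and 1330 to 1570 CPM in Y541S E2+P4. Over all libraries, markers of endothelial cells summed to 7.63 to 122 CPM and those of leukocytes to 3.85 to 142 CPM. Sums were higher for fibroblasts, at 37.8 to 4110 CPM, and for basal cells, at 38.4 to 914 CPM. In a bulk sample fewer cells of a type and less RNA per cell cannot be told apart. The libraries WT placebo 2 and WT P4 2 stood apart by basal cell markers, which averaged 4.67 and 4.1 log2 CPM in them against 1.77 to 2.57 in the other libraries of their groups. Y541S placebo 5 stood apart by luminal progenitor and alveolar markers, at 9.27 log2 CPM against 8.15 and 7.67 in the other libraries of its group. Its hormone-sensing markers were lower, at 7.22 log2 CPM against 8.17 and 8.3. This library, WT P4 4 and WT P4 5 carry sample identifiers of a later number series, which holds too few libraries for values of its own.

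The ligand genes Wnt4 and Wnt7b were the most abundant members per length of exon in WT placebo, at 95.1 ± 16.4 and 91.3 ± 18.6 CPM per kilobase (n = 3). Wnt5b was at 23.2 ± 6.78 and Wnt5a at 18.2 ± 2.34 CPM per kilobase. Rnf43 and Lgr4 followed at 7.21 ± 0.856 and 4.23 ± 1.49, and Znrf3, Lgr5, Rspo1 and Axin2 lay between 0.336 and 1.71 CPM per kilobase. In WT E2 the order was different: Wnt5b led at 204 ± 39.2 CPM per kilobase, ahead of Wnt7b at 50.1 ± 14.3, and Wnt4 was at 4.83 ± 3.6. Rspo1 has no firm place in that order, since its libraries there were at 236, 28 and 19.3 CPM (48.7 ± 63.2 CPM per kilobase). These values divide by annotated exons, whereas the tables' own gene width mostly equals the genomic span with introns.

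Counts of members past the test are read here against the share of all 18426 genes past it. A gene was called at an adjusted p under 0.05, and a log2 difference is given ± SE. In WT cells E2 changed 7 of the 10 genes (3 higher, 4 lower) against 31.5% of all genes. E2+P4 changed 5 (2 higher, 3 lower) against 23.4%. P4 alone changed 0 of the 10 in edgeR, where 1.43% of all genes were called; 2 members, Rspo1 and Rnf43, had an unadjusted p under 0.05, and DESeq2 called the same 2. In D542G cells E2 changed 3 (all lower) against 15.7%, P4 changed 4 (2 higher, 2 lower) against 18.4%, and E2+P4 changed 6 (4 higher, 2 lower) against 25.4%. In Y541S cells E2 changed 0 in edgeR against 4.65% of all genes, with 4 members at an unadjusted p under 0.05 and 1 called by DESeq2. There P4 changed 1 (lower) against 11.3%, and E2+P4 changed 3 (all lower) against 18.5%. The median log2 difference of the 10 genes lay between -1.24 (WT E2+P4) and 0.09 (D542G E2+P4), with called genes in both directions in 4 of these 9 comparisons. The comparisons within a genotype share their placebo libraries.

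Direct comparisons gave further counts. Adding E2 to P4 in WT cells changed 5 of the 10 genes (2 higher, 3 lower) against 23.2% of all genes, and adding P4 to E2 changed 3 (1 higher, 2 lower) against 18.5%. Under placebo, D542G cells differed from WT cells in 0 members by edgeR, against 2.02% of all genes, with 3 members at an unadjusted p under 0.05 and 2 called by DESeq2. Y541S placebo differed from WT placebo in 3 members (2 higher, 1 lower) against 13.4%. The difference between the responses of mutant and WT cells was called for 2 members under E2 in D542G (9.23% of all genes), 3 under P4 (3.35%) and 1 under E2+P4 (4.3%). For Y541S it was called for 3 under E2 (8.02%), 1 under P4 (7.33%) and 2 under E2+P4 (8.68%). In WT cells the response to E2+P4 differed from the sum of the single responses for 2 members (1 higher, 1 lower) against 11.4%.

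**Figure D1:**
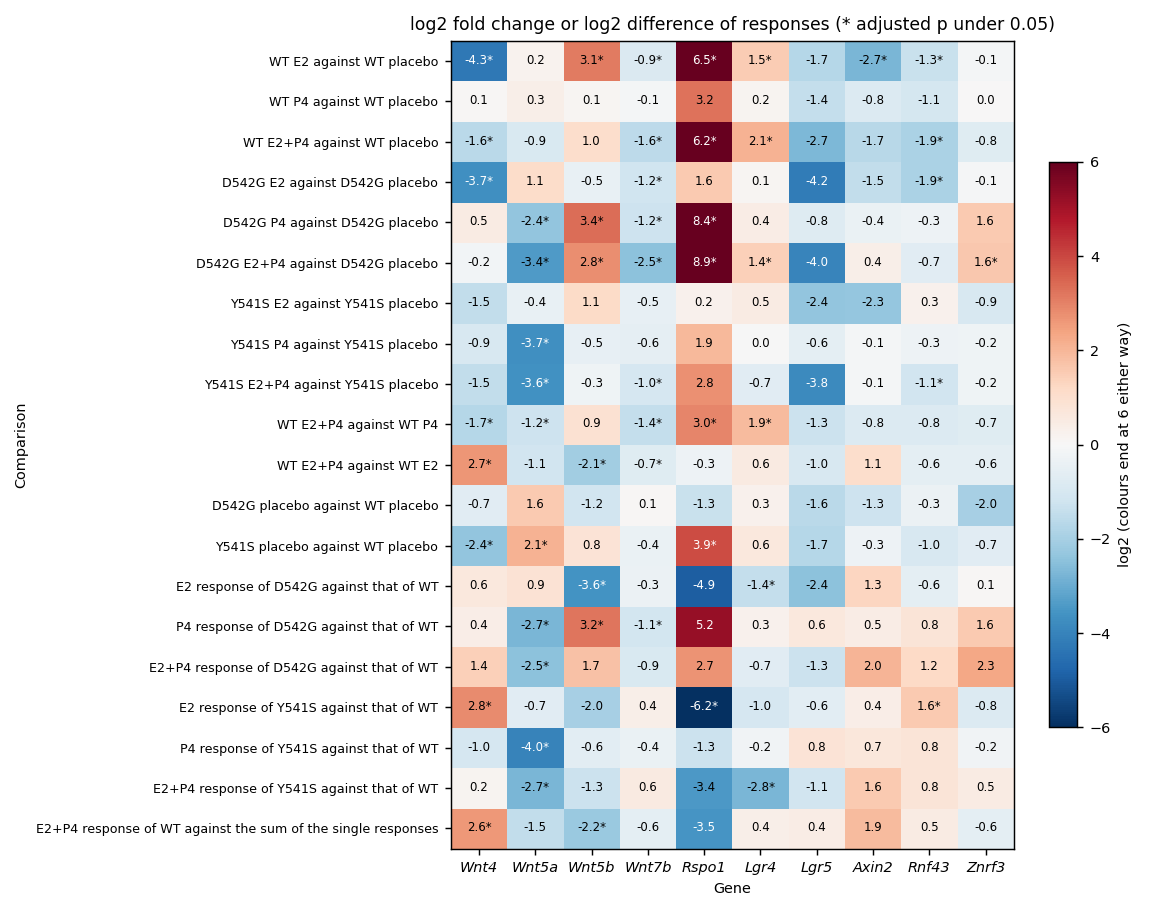
Log2 fold changes, or log2 differences of responses, of the 10 genes (columns) in the 20 comparisons (rows); asterisks mark an adjusted p under 0.05 and the colours end at 6 either way. The largest positive values stand in the Rspo1 column (8.45 and 8.9 in D542G P4 and E2+P4), the Wnt4 column is at -4.29 and -3.68 under E2 in WT and D542G cells, and the Wnt5a column is lowest in the rows of the mutants with P4.

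Wnt4 (ENSMUSG00000036856, GRCm38 chr4:137277489-137299726, plus strand) encodes the ligand best known as a luminal paracrine signal. It was at 449, 320 and 427 CPM in the WT placebo libraries and at 35, 4.84 and 21 CPM in the WT E2 libraries. In WT P4 it was at 447, 463, 424 and 349 CPM, and in WT E2+P4 at 128, 38.7 and 220 CPM. P4 libraries thus overlapped those of placebo, while every library with E2, alone or with P4, lay below every placebo library. The P4 difference was 0.08 ± 0.51 log2 (adjusted p = 0.976). E2+P4 was higher than E2 alone by 2.66 ± 0.58 log2 (adjusted p = 0.00141) and lower than placebo by -1.63 ± 0.56 (adjusted p = 0.0326). The latter call was lost without WT placebo 1 or 3 or without WT E2+P4 1 or 2 (adjusted p = 0.0764 to 0.16), and with no filter or only the groups compared (adjusted p = 0.0616 and 0.0703), and without WT E2+P4 3 the difference was -2.26 log2. Without WT E2 1, E2 differed from placebo by -4.94 log2, and without WT E2+P4 3 the combination differed from E2 by 2.03. Without WT E2 1 it differed from E2 by 3.31, and with only the groups compared by 2.69 (adjusted p = 0.107).

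E2+P4 was also lower than P4 alone for Wnt4 (-1.71 ± 0.53 log2, adjusted p = 0.0202). That call was lost without WT E2+P4 1 or 2 (-1.7 and -1.27, adjusted p = 0.0654 and 0.116). On the log2 scale the WT response to E2+P4 lay 2.59 ± 0.75 above the sum of the single responses (adjusted p = 0.0228). It did not pass without WT placebo 1, WT E2 2 or WT E2+P4 3 (1.96 to 2.49, adjusted p = 0.0525 to 0.125), without the later identifier series (2.49, adjusted p = 0.0691) or with only the groups compared (2.60, adjusted p = 0.074).

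The mutants differed from this pattern in part. In D542G cells Wnt4 was at 252, 193 and 304 CPM in placebo, 23.7, 26.1 and 8.66 in E2, 532, 220 and 297 in P4, and 250, 301 and 109 in E2+P4. E2 again lay below all placebo libraries (-3.68 ± 0.60 log2, adjusted p = 8.49e-05), whereas the E2+P4 libraries overlapped those of placebo (-0.18 ± 0.54, adjusted p = 0.846). Tested against WT cells, this response to E2+P4 did not differ past the threshold (1.45 ± 0.77, adjusted p = 0.332). In Y541S placebo the gene was at 65.6, 120 and 45.7 CPM, below every WT and D542G placebo library; the difference from WT placebo was -2.37 ± 0.57 log2 (adjusted p = 0.00488). The other Y541S groups lay at 16 to 48.1 CPM. No Y541S hormone group passed edgeR's test against Y541S placebo in the fit to all libraries (log2 differences -0.95 to -1.47). E2+P4 passed with only the groups compared (-1.49, adjusted p = 0.0496), and DESeq2 called E2 and E2+P4 (-1.50 in both, adjusted p = 0.0461 and 0.0247). Without Y541S placebo 5, E2+P4 passed (-1.73 log2, adjusted p = 0.0413). The E2 response of Y541S differed from that of WT cells by 2.82 ± 0.78 log2 (adjusted p = 0.0236). That call was lost without any 1 of WT placebo 1, WT placebo 3, WT E2 2, Y541S E2 1 or Y541S placebo 5 (2.36 to 2.77 log2, adjusted p = 0.051 to 0.0897).

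Hormone-sensing cell markers moved with Wnt4 in WT cells: their mean was 9.37, 8.81 and 9.29 log2 CPM in placebo and 6.26, 5.95 and 7.19 in E2. Markers of luminal progenitor and alveolar cells, of which 7 of 8 were tested, summed to 3760 to 4420 CPM in WT placebo and 9130 to 32900 CPM in WT E2. Csn3 was listed at 0, and its whole span overlaps other genes, so its 0 was not read as absence. In D542G cells under E2, where Wnt4 also fell, the hormone-sensing markers summed to 5080 to 6080 CPM against 6440 to 7330 in placebo, and the progenitor markers to 1650 to 3320 CPM against 1720 to 3340. Their part in the Wnt4 result was not tested.

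Wnt7b (ENSMUSG00000022382, GRCm38 chr15:85535437-85582473, minus strand), which encodes a ligand that can signal through beta-catenin, was at 485, 343 and 514 CPM in WT placebo, 200, 211 and 326 in E2, 441, 463, 366 and 368 in P4, and 125, 185 and 141 in E2+P4. In D542G cells it was at 465, 481 and 480 CPM in placebo, 220, 214 and 183 in E2, 198, 169 and 235 in P4, and 71.2, 110 and 73.6 in E2+P4. The D542G groups with any hormone thus lay below all D542G placebo libraries, and the combination below each single hormone. Wnt7b fell under E2 in WT (-0.87 ± 0.22 log2, adjusted p = 0.00307) and D542G cells (-1.21 ± 0.22, adjusted p = 2.84e-04). Under E2+P4 it fell in all 3 genotypes, by -1.57 ± 0.22 log2 in WT, -2.48 ± 0.23 in D542G and -1.03 ± 0.22 in Y541S cells (adjusted p = 4.79e-06, 1.31e-08 and 0.00141). WT E2+P4 was lower than WT P4 (-1.44 ± 0.21, adjusted p = 8.45e-06) and than WT E2 (-0.71 ± 0.22, adjusted p = 0.022). The difference from E2 did not pass without WT E2 3 or WT E2+P4 1 or 3 (-0.45 to -0.66, adjusted p = 0.0918 to 0.179).

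Under progesterone alone Wnt7b differed between D542G and WT cells. The P4 difference was -0.13 ± 0.20 log2 in WT cells (adjusted p = 0.85) and -1.25 ± 0.22 in D542G cells (adjusted p = 2.90e-04), and the difference between these responses was -1.12 ± 0.30 (adjusted p = 0.0354). The latter was lost when any 1 of 9 libraries was left out, namely WT placebo 1 and 2, WT P4 2 and 3, and all libraries of D542G placebo (1, 2 and 3) and of D542G P4 1 and 2 (-0.96 to -1.18 log2, adjusted p = 0.0505 to 0.122), and with library totals only (-0.88, adjusted p = 0.0585). The P4 response of Y541S did not differ from that of WT cells past the threshold (-0.42 ± 0.30, adjusted p = 0.446). Y541S libraries were at 421, 377 and 208 CPM in placebo, 256, 238 and 220 in E2, 253, 196 and 239 in P4, and 146, 172 and 175 in E2+P4. The lowest placebo value was that of Y541S placebo 5. Without it Wnt7b passed the test in Y541S E2 (-0.74 log2, adjusted p = 0.0204) and Y541S P4 (-0.80, adjusted p = 0.011), and with it in neither by edgeR (-0.49 ± 0.22 and -0.55 ± 0.22, adjusted p = 0.223 and 0.107). DESeq2 called P4 with all libraries (-0.60, adjusted p = 0.0488). The E2+P4 response of D542G lay -0.91 ± 0.31 log2 from that of WT cells (adjusted p = 0.0909), and passed without D542G E2+P4 2 (-1.14, adjusted p = 0.0446) and in DESeq2 (-0.92, adjusted p = 0.0438).

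Hormone-sensing cell markers summed to 1860 to 2900 CPM in D542G P4 against 6440 to 7330 in D542G placebo, and to 5770 to 6450 CPM in WT P4 against 4840 to 7490 in WT placebo. In D542G E2, where Wnt7b was at 183 to 220 CPM, the sum was 5080 to 6080 CPM. In Y541S cells it was 1570 to 5460 CPM in placebo and 1350 to 1770 in P4. The part of these markers in the P4 values of Wnt7b, and in those of Wnt5a that follow, was not tested.

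Wnt5a (ENSMUSG00000021994, GRCm38 chr14:28504750-28527448, plus strand) encodes the main ligand of the beta-catenin-independent routes, and 14.6% of its span overlaps Gm2670. In WT cells it was at 163, 130 and 133 CPM in placebo and at 188, 161, 183 and 191 in P4. In WT E2 it was at 34.5, 189 and 275 CPM, and in E2+P4 at 48.2, 76.9 and 103. WT P4 overlapped placebo, E2 held libraries below and above both, and E2+P4 lay below placebo without passing the test (-0.91 ± 0.44 log2, adjusted p = 0.142). It did pass with library totals only (-1.14, adjusted p = 0.0393) and with only the groups compared (-0.93, adjusted p = 0.0463). D542G libraries were at 286, 497 and 481 CPM in placebo, 889, 1120 and 697 in E2, 76.4, 50.1 and 116 in P4, and 48.2, 50.3 and 22.1 in E2+P4. In the Y541S groups they were 668, 797 and 341 CPM in placebo, 411, 397 and 523 in E2, 39.1, 53.2 and 47.8 in P4, and 42.7, 40.7 and 61.6 in E2+P4. Every mutant library without P4 exceeded every mutant library with P4, and no overlap remained.

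The P4 response of Wnt5a differed between mutant and WT cells. Wnt5a fell by 2.38 ± 0.46 log2 in D542G P4 (adjusted p = 6.80e-04) and by 3.69 ± 0.48 in Y541S P4 (adjusted p = 1.41e-05), against a log2 difference of 0.35 ± 0.41 in WT P4 (adjusted p = 0.783). The responses differed from that of WT cells by -2.73 ± 0.61 log2 for D542G (adjusted p = 0.0142) and by -4.03 ± 0.63 for Y541S (adjusted p = 3.37e-04). The first lost its call without D542G P4 2 (-2.48 log2, adjusted p = 0.0553), and the second kept it under all alternatives run. Under E2+P4 the differences from the WT response were -2.48 ± 0.63 (adjusted p = 0.0199) and -2.73 ± 0.63 (adjusted p = 0.0054). The D542G value did not pass without WT placebo 2, WT E2+P4 3, D542G placebo 2 or 3, or D542G E2+P4 3 (-2.19 to -2.43 log2, adjusted p = 0.0507 to 0.0731). Under placebo, Y541S cells had more Wnt5a than WT cells (2.08 ± 0.45, adjusted p = 0.002), and D542G differed from WT by 1.57 ± 0.45, which did not pass in edgeR's fit to all libraries (adjusted p = 0.0637) but did with only the groups compared (1.55, adjusted p = 0.0201) and in DESeq2 (1.56, adjusted p = 0.0114). Within WT cells E2+P4 lay below P4 (-1.25 ± 0.42, adjusted p = 0.0313), a call lost without WT E2+P4 1 or 2 or WT P4 4 or 5 (adjusted p = 0.0514 to 0.156) and without the later identifier series (-1.20, adjusted p = 0.101). Against E2 alone, WT E2+P4 did not pass in edgeR with all libraries. It passed without WT E2 1, the library with 34.5 CPM (-1.61 log2, adjusted p = 0.00193), with library totals only (-1.35, adjusted p = 0.0173) and in DESeq2 (-1.12, adjusted p = 0.0439). The distance of E2+P4 from the sum of the single responses passed without the same library (-1.96, adjusted p = 0.00621) and with library totals only (-1.73, adjusted p = 0.0362).

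Fibroblast markers, all 8 of which were tested, summed to 4050, 4110 and 455 CPM in Y541S placebo, 436 to 665 in Y541S P4 and 37.8 to 283 in WT placebo. Most of the Y541S placebo sum was Dcn, with a group mean of 2750 CPM. The mean of all 8 markers was 3.34 ± 0.94 log2 CPM in Y541S placebo and 0.64 ± 0.15 in WT placebo. In Y541S placebo 5, where the sum was 455 CPM, Wnt5a was at 341 CPM, against 668 and 797 CPM in the other libraries of that group. In D542G cells the sum was 254 to 921 CPM in placebo and 55.6 to 353 in P4. In Y541S E2 the sum was 172 to 303 CPM, below Y541S P4, with Wnt5a at 397 to 523 CPM. In D542G E2, the group with the most Wnt5a, it was 261 to 535 CPM. The mean of the 8 markers ran otherwise. In Y541S cells it was 3.34 log2 CPM in placebo, 2.18 in E2, 1.15 in P4 and 1.59 in E2+P4 (SD 0.47 to 0.94). That was also the order of the Wnt5a group means. In D542G cells it was 0.26 in placebo, 2.07 in E2, 2.04 in P4 and 3.29 in E2+P4 (SD 0.27 to 1.36). The part of these markers in the Wnt5a result was not tested.

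Wnt5b (ENSMUSG00000030170, GRCm38 chr6:119432531-119544347, minus strand) encodes a close relative of Wnt5a. It was at 67.6, 41.5 and 75.9 CPM in WT placebo, 432, 639 and 554 in E2, 57.5, 80.1, 70.3 and 60.7 in P4, and 189, 116 and 75.8 in E2+P4. All E2 libraries stood above all other WT libraries. D542G libraries were at 27.3, 40 and 15 CPM in placebo, 22.4, 17 and 20.3 in E2, 156, 500 and 181 in P4, and 125, 292 and 149 in E2+P4. The hormone with the high libraries was thus E2 in WT cells and P4 in D542G cells. Wnt5b rose by 3.14 ± 0.52 log2 in WT E2 (adjusted p = 3.84e-05), and the D542G E2 difference was -0.46 ± 0.49 (adjusted p = 0.566). It rose by 3.35 ± 0.53 in D542G P4 (adjusted p = 9.56e-05), and the WT P4 difference was 0.12 ± 0.45 (adjusted p = 0.951).

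The direct tests of these differences passed. The E2 response of D542G differed from that of WT cells by -3.60 ± 0.71 log2 (adjusted p = 0.00135), and the P4 response by 3.22 ± 0.67 (adjusted p = 0.00939). Wnt5b also rose in D542G E2+P4 (2.78 ± 0.52, adjusted p = 1.97e-04). D542G P4 2, with 500 CPM, had the highest progenitor and alveolar marker sum of its group, 11100 CPM against 3670 and 4600. Without it the D542G P4 difference was 2.62 log2 (adjusted p = 0.00139) and that against the WT response 2.50 (adjusted p = 0.05). In WT cells E2+P4 was lower than E2 by -2.09 ± 0.50 (adjusted p = 0.00365). It lay -2.22 ± 0.67 log2 from the sum of the single responses (adjusted p = 0.0305), a call lost without WT placebo 1 or 2, WT E2 2, WT P4 3, or WT E2+P4 2 or 3 (-1.95 to -2.29, adjusted p = 0.0521 to 0.106). Progenitor and alveolar markers summed to 9130 to 32900 CPM in WT E2 and 2950 to 3920 in WT P4, against 3760 to 4420 in WT placebo. In D542G cells they summed to 1650 to 3320 CPM in E2 and 3670 to 11100 in P4, against 1720 to 3340 in placebo. With E2+P4 the sums were 6630 to 9800 CPM in WT and 3450 to 5670 in D542G cells. The part of the progenitor markers in the Wnt5b results was not tested.

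In Y541S cells Wnt5b was at 70.2, 29.8 and 230 CPM in placebo, 219, 286 and 227 in E2, 77.2, 75.9 and 81.3 in P4, and 108, 92.3 and 74 in E2+P4. The E2 libraries overlapped placebo through Y541S placebo 5 alone, and the E2 difference was 1.15 ± 0.49 log2 (adjusted p = 0.207). Without that library it was 2.29 (adjusted p = 0.00206). The E2 response of Y541S differed from that of WT cells without Y541S placebo 3 (-2.43, adjusted p = 0.0131) and in DESeq2 (-2.01, adjusted p = 0.0287), but not in edgeR with all libraries. Wnt5b has several start sites in the annotation, and of its 3 windows of 250 bases before a start in RefSeq's promoter set, a single window held a T-cell factor motif. That window is shown as the sequence before a start of a hormone-responsive ligand gene. It lies at GRCm38.p6 chr6:119449387-119449636 on the minus strand, inside an intron of the longer transcripts, and is printed 5′ to 3′ with the motif in capitals.
Wnt5b start 3: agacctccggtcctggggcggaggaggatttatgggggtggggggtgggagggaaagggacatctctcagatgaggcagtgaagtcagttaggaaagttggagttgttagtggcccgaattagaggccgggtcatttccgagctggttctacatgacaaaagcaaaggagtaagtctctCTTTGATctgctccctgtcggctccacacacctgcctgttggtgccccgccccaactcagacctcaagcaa

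**Figure D2:**
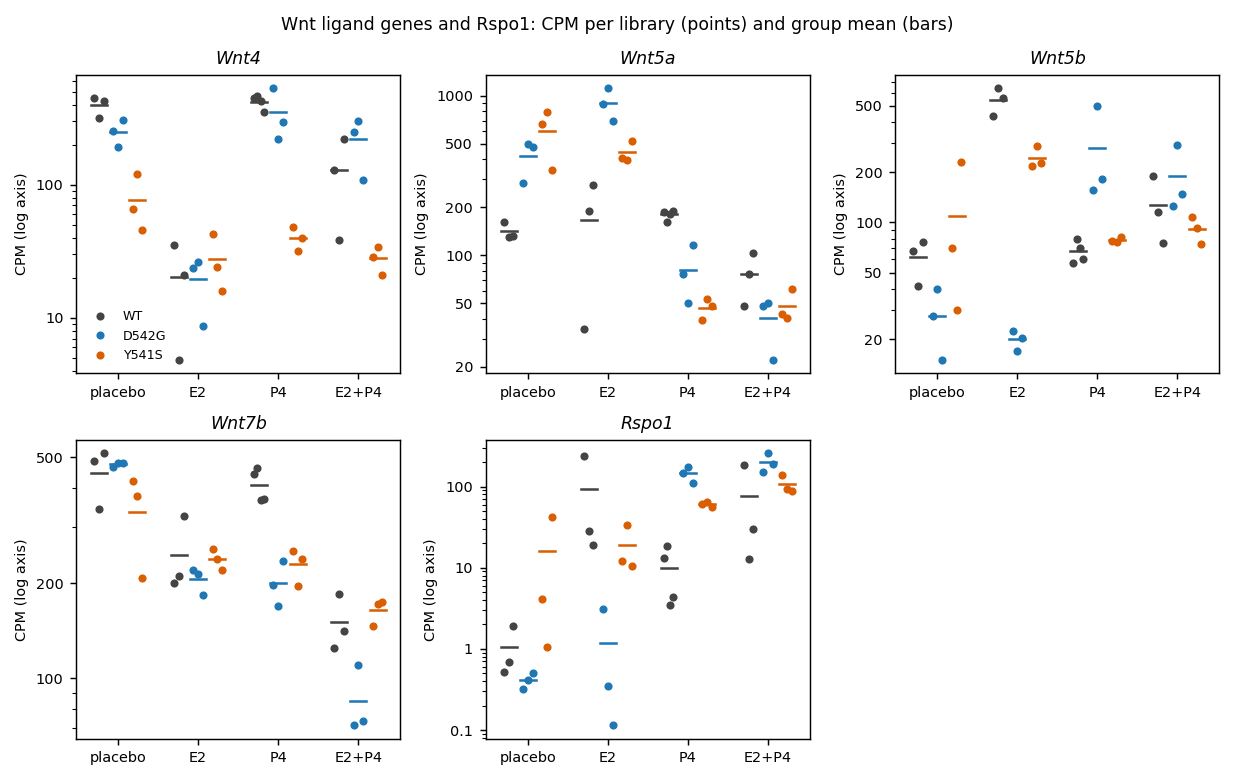
CPM on a log axis for the 4 ligand genes and Rspo1 in each library (points, coloured by genotype) with the group mean (bars), by treatment. Wnt5a libraries of both mutants lie at 22.1 to 116 CPM with P4 or E2+P4 and at 286 to 1120 CPM without, and Wnt5b is highest under E2 in WT cells and under P4 in D542G cells.

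Rspo1 (ENSMUSG00000028871, GRCm38 chr4:124986430-125009099, plus strand), which encodes the R-spondin that enhances Wnt signals at the receptor, had the widest range of the 10 genes. It was at 0.522, 0.69 and 1.94 CPM in WT placebo, 236, 28 and 19.3 in E2, 13, 18.4, 3.46 and 4.42 in P4, and 186, 12.8 and 29.6 in E2+P4. All WT hormone libraries lay above all placebo libraries, with 1 library far above the others in E2 and in E2+P4. The high one in E2+P4, WT E2+P4 1, had hormone-sensing markers at a sum of 2040 CPM, against 4450 and 4970 in the others. For the high one in E2, WT E2 1, that sum was 812 CPM, against 878 and 1620 in the others. The D542G libraries were at 0.318, 0.409 and 0.512 CPM in placebo, 3.08, 0.345 and 0.115 in E2, 149, 175 and 112 in P4, and 152, 256 and 189 in E2+P4. D542G libraries with P4 were all above 100 CPM, and those without all below 4 CPM. Rspo1 rose in WT E2 (6.5 ± 1.30 log2, adjusted p = 3.07e-04) and WT E2+P4 (6.19 ± 1.28, adjusted p = 6.27e-04). It rose in D542G P4 by 8.45 ± 1.43 (adjusted p = 1.89e-04) and in D542G E2+P4 by 8.90 ± 1.45 (adjusted p = 3.93e-05).

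Single libraries moved several Rspo1 values. Without WT E2 1 the WT E2 difference was 4.50 log2 (adjusted p = 0.0039), and without WT E2+P4 1 the WT E2+P4 difference was 4.35 (adjusted p = 0.00786). Without WT placebo 3 they were 7.28 and 6.96. The WT P4 difference was 3.24 ± 1.12 and did not pass in edgeR (adjusted p = 0.156), but passed in DESeq2 (3.21, adjusted p = 0.0239). WT E2+P4 was higher than WT P4 by 2.95 ± 0.96 (adjusted p = 0.0257). That call was lost without WT E2+P4 1 (1.11, adjusted p = 0.481) without WT P4 4 or 5 (2.68 and 2.71, adjusted p = 0.0758 and 0.0783) and without the later identifier series (2.28, adjusted p = 0.154). The distance of WT E2+P4 from the sum of the single responses was -3.55 ± 1.48 (adjusted p = 0.125), and passed without WT E2+P4 1 (-5.39, adjusted p = 0.0209) and without the later series (-4.20, adjusted p = 0.0481). The D542G responses differed from those of WT cells by -4.93 ± 1.76 log2 under E2 and 5.21 ± 1.61 under P4, and neither passed in edgeR's fit to all libraries (adjusted p = 0.0771 and 0.0698), although both passed in DESeq2 (-4.98 and 5.28, adjusted p = 0.00831 and 0.0059). In edgeR the P4 difference passed with only the groups compared (5.22, adjusted p = 0.0114), and the E2 difference passed without WT E2 3 (-5.42, adjusted p = 0.0479) and without D542G E2 1 (-7.39, adjusted p = 0.0223).

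Cell markers differed between the D542G groups too. Hormone-sensing markers summed to 1860 to 2900 CPM in D542G P4 and 1240 to 2250 in D542G E2+P4, against 6440 to 7330 in D542G placebo. Endothelial markers, all 6 detected, summed to 37.3 to 105 CPM in D542G P4 and 35.5 to 53.1 in E2+P4, against 9.42 to 20.2 in placebo, and to 23.8 to 122 CPM in D542G E2, where Rspo1 was at 0.115 to 3.08 CPM. Other marker lists also differed in mean log2 CPM, given here for D542G placebo, E2, P4 and E2+P4 in that order. Fibroblast markers were at 0.26, 2.07, 2.04 and 3.29. Progenitor and alveolar markers were at 7.39, 6.96, 8.52 and 8.22, and basal markers at 2.84, 2.13, 3.5 and 3.84. The part of any of these marker lists in the Rspo1 values was not tested.

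In Y541S cells Rspo1 was at 4.09, 1.07 and 42.6 CPM in placebo, 12.2, 33.7 and 10.5 in E2, 60.5, 64.8 and 55.8 in P4, and 138, 92.8 and 89.3 in E2+P4. The highest placebo library was again Y541S placebo 5, and the P4 and E2+P4 libraries lay above it. With all libraries neither P4 (1.93 ± 1.03 log2, adjusted p = 0.251) nor E2+P4 (2.75 ± 1.06, adjusted p = 0.0696) passed the test in edgeR, and DESeq2 called E2+P4 (2.69, adjusted p = 0.0385). Without Y541S placebo 5 both did, at 4.54 (adjusted p = 0.0136) and 5.37 (adjusted p = 0.00312). Y541S placebo exceeded WT placebo by 3.92 ± 1.18 (adjusted p = 0.025), and without Y541S placebo 5 the value was 1.31 (adjusted p = 0.555). That call was also lost without WT placebo 1 or 2 (3.60 and 3.69, adjusted p = 0.117 and 0.0812), and without WT placebo 3 the value was 4.70. The E2 response of Y541S differed from that of WT cells by -6.25 ± 1.57 (adjusted p = 0.0126). It did not pass without Y541S placebo 5 (-3.64, adjusted p = 0.145) or WT E2 1 (-4.25, adjusted p = 0.0668), and was -7.03 without WT placebo 3 and -6.98 without Y541S E2 2.

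The 250 bases before the Rspo1 start are shown because this gene had the largest log2 differences. They lie at GRCm38.p6 chr4:124986180-124986429 on the plus strand, end at the base before the annotated gene, and hold no match to either motif, so no letters are in capitals.
Rspo1: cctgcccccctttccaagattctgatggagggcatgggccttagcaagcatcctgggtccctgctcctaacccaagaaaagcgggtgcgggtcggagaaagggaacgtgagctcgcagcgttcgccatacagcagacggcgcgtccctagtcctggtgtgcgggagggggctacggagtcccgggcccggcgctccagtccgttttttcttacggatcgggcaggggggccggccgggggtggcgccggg
Of the 10 genes, 6 have a window in the RefSeq promoter table (Wnt4, Wnt5b, Rspo1, Lgr4, Axin2 and Rnf43, with 9 windows in all), and Wnt5a, Wnt7b, Lgr5 and Znrf3 have none. The T-cell factor motif, CTTTGNN with A or T at both N, was searched on both strands. It was found in 14.8% of all 32851 windows of this length. Among the 9 windows 1 held it, that of Wnt5b above, where it starts 71 bases before the start site. The palindromic estrogen response element, GGTCA and TGACC spaced by 3 bases, was in 0.1% of all windows and in 0 of these 9. A match describes letters, not a bound site.

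Lgr4 (ENSMUSG00000050199, GRCm38 chr2:109917647-110014257, plus strand) encodes the R-spondin receptor with the broad tissue range. It was at 19.1, 35 and 20.5 CPM in WT placebo, 62.8, 86 and 66.5 in E2, 42.8, 28.3, 17.3 and 23.7 in P4, and 100, 70.5 and 144 in E2+P4. WT libraries with E2 lay above all those without. D542G levels were 28.4, 25.5 and 36 CPM in placebo, 39.9, 35.9 and 22.1 in E2, 44.4, 33.9 and 43.6 in P4, and 84.9, 76.3 and 77.8 in E2+P4. Here the combination alone stood apart from placebo. Lgr4 rose in WT E2 (1.53 ± 0.32 log2, adjusted p = 4.62e-04), WT E2+P4 (2.07 ± 0.32, adjusted p = 1.77e-05) and D542G E2+P4 (1.41 ± 0.31, adjusted p = 0.00136). In WT cells E2+P4 was also higher than P4 (1.90 ± 0.29, adjusted p = 1.51e-05).

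In Y541S cells Lgr4 was at 27.5, 35.6 and 52.4 CPM in placebo, 58.2, 57.6 and 48.1 in E2, 40.6, 30 and 42.9 in P4, and 22.1, 34 and 15.8 in E2+P4. The E2+P4 libraries had the lowest mean of the genotype and overlapped placebo. The difference was -0.68 ± 0.31 log2 (adjusted p = 0.131), and passed without Y541S E2+P4 2 (-1.02, adjusted p = 0.0488). Compared with WT cells, the response of Y541S to E2+P4 differed by -2.76 ± 0.45 (adjusted p = 1.60e-04), under all alternatives run. The E2 response of D542G differed from that of WT cells by -1.41 ± 0.44 (adjusted p = 0.0413). This call was lost without any 1 of WT placebo 1 or 3, WT E2 2, D542G placebo 1 or 3, or D542G E2 2 or 3 (-1.19 to -1.48, adjusted p = 0.0578 to 0.118).

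Lgr5 (ENSMUSG00000020140, GRCm38 chr10:115450311-115587780, minus strand), a receptor of R-spondins known as a stem cell marker, was scarce, and 9.1% of its span overlaps A930009A15Rik. It was at 2.27, 18.9 and 0.561 CPM in WT placebo, 0.144, 4.84 and 1.57 in E2, 6.55, 1.57, 1.73 and 1.05 in P4, and 0.528, 0.48 and 2.32 in E2+P4. The highest library in WT placebo was placebo 2, and in WT P4 it was P4 2. In D542G cells it was at 4.63, 0.0227 and 2.3 CPM in placebo, where the lowest library had 1 count, and at 0.0893 to 0.245 CPM in E2 and E2+P4. In Y541S placebo it was at 1, 4.85 and 0.755 CPM, and in Y541S E2+P4 at 0.0809, 0.261 and 0.111. No comparison passed in edgeR's fit to all libraries. Y541S E2+P4 against placebo passed with only the groups compared (-3.86 log2, adjusted p = 0.0454). DESeq2 called Lgr5 in D542G E2 (-4.24 log2, adjusted p = 0.0135), D542G E2+P4 (-4.01, adjusted p = 0.0133) and Y541S E2+P4 (-3.91, adjusted p = 0.0213). The edgeR values there were -4.18 ± 1.67, -3.97 ± 1.63 and -3.83 ± 1.62 (adjusted p = 0.0877, 0.0726 and 0.1).

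Axin2 (ENSMUSG00000000142, GRCm38 chr11:108920349-108950783, plus strand) is the scaffold gene used as a readout of beta-catenin signalling, and 8.9% of its span overlaps Gm11670. Axin2 was at most 3.22 CPM in any library. It was at 1.57, 3.22 and 0.758 CPM in WT placebo and at 0.596, 0.151 and 0.0673 in WT E2, from 27 to 126 counts per library in placebo and 3 to 29 in E2. The E2 libraries lay below all placebo libraries (-2.74 ± 0.96 log2, adjusted p = 0.0297). The call was lost without WT placebo 2 (-2.07, adjusted p = 0.125), the library with the basal markers, and without WT E2 2 or 3 (-2.46 and -2.28, adjusted p = 0.106 and 0.111), and without WT E2 1 the value was -4.07. It was also lost with only the groups compared (-2.78, adjusted p = 0.0897). Y541S libraries had 1.03, 2.51 and 0.899 CPM of Axin2 in placebo and 0.189, 0.237 and 0.455 in E2, without overlap, and the difference did not pass (-2.32 ± 0.94, adjusted p = 0.181). Y541S P4 and E2+P4 libraries were at 1.21 to 1.58 CPM. In D542G cells all libraries lay at 0.0576 to 1.49 CPM, and no comparison with D542G placebo passed. No other comparison called Axin2.

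Rnf43 (ENSMUSG00000034177, GRCm38 chr11:87662722-87735539, plus strand) encodes a ligase that removes Frizzled receptors, and 5.5% of its span overlaps other genes. It was at 44.3, 53.8 and 43.9 CPM in WT placebo, 20.1, 21.2 and 15.8 in E2, 27, 20, 16.6 and 27 in P4, and 9.01, 20.4 and 9.06 in E2+P4. Every WT hormone library lay below every WT placebo library. Rnf43 fell in WT E2 (-1.32 ± 0.36 log2, adjusted p = 0.00572) and WT E2+P4 (-1.89 ± 0.37, adjusted p = 3.08e-04), and the P4 difference of -1.06 ± 0.33 did not pass (adjusted p = 0.106), but did with only the groups compared (-1.06, adjusted p = 0.0364) and in DESeq2 (-1.08, adjusted p = 0.031). E2+P4 against P4 passed without WT E2+P4 2 (-1.33, adjusted p = 0.0114) and with library totals only (-1.06, adjusted p = 0.0217), and not with all libraries under TMM factors. D542G libraries had 42.5, 33.5 and 35 CPM in placebo and 14, 12.1 and 3.6 in E2, with no overlap (-1.90 ± 0.37 log2, adjusted p = 5.34e-04). D542G P4 and E2+P4 libraries were at 17.5 to 41.5 CPM and did not pass, except E2+P4 with only the groups compared (-0.67, adjusted p = 0.0478).

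In Y541S cells Rnf43 was at 29.2, 26.4 and 17.2 CPM in placebo, 30.9, 23.9 and 32.4 in E2, 15.8, 25.2 and 17.6 in P4, and 12.1, 10.2 and 10.9 in E2+P4. The E2 libraries overlapped placebo and those of E2+P4 lay below it. Rnf43 fell in Y541S E2+P4 (-1.13 ± 0.36 log2, adjusted p = 0.0267), a call lost without Y541S placebo 2 or 3 or any 1 library of Y541S E2+P4 (-0.98 to -1.20, adjusted p = 0.0594 to 0.103). The E2 response of Y541S differed from that of WT cells by 1.58 ± 0.50 (adjusted p = 0.0497). It did not pass without any 1 of the libraries of WT placebo, WT E2 or Y541S E2, or without Y541S placebo 3 or 5 (1.38 to 1.70, adjusted p = 0.0513 to 0.139).

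Znrf3 (ENSMUSG00000041961, GRCm38 chr11:5276324-5444847, minus strand), the related ligase gene, was at 7.15, 27.2 and 5.98 CPM in WT placebo, 19.6, 6.77 and 10.2 in E2, 24.2, 11.2, 9.19 and 9.1 in P4, and 10, 4.48 and 9.53 in E2+P4. WT groups overlapped one another, and the high libraries of placebo and P4 were again placebo 2 and P4 2. In D542G cells it was at 3.93, 1.77 and 4.52 CPM in placebo, 4.01, 3.45 and 2.27 in E2, 7.84, 14.7 and 7.6 in P4, and 9.14, 15.5 and 6.25 in E2+P4. D542G libraries with P4 lay above all those without. The E2+P4 difference passed (1.60 ± 0.58 log2, adjusted p = 0.0412) and the P4 difference did not in edgeR (1.56 ± 0.58, adjusted p = 0.0581), although it did in DESeq2 (1.59, adjusted p = 0.0232) and with library totals only (1.84, adjusted p = 0.0327). The first was lost without any 1 library of D542G placebo or without D542G E2+P4 1 or 2 (1.17 to 1.85, adjusted p = 0.0543 to 0.195). Y541S libraries were at 3.17 to 15.8 CPM, the highest being Y541S placebo 5, and no comparison within Y541S passed.

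**Figure D3:**
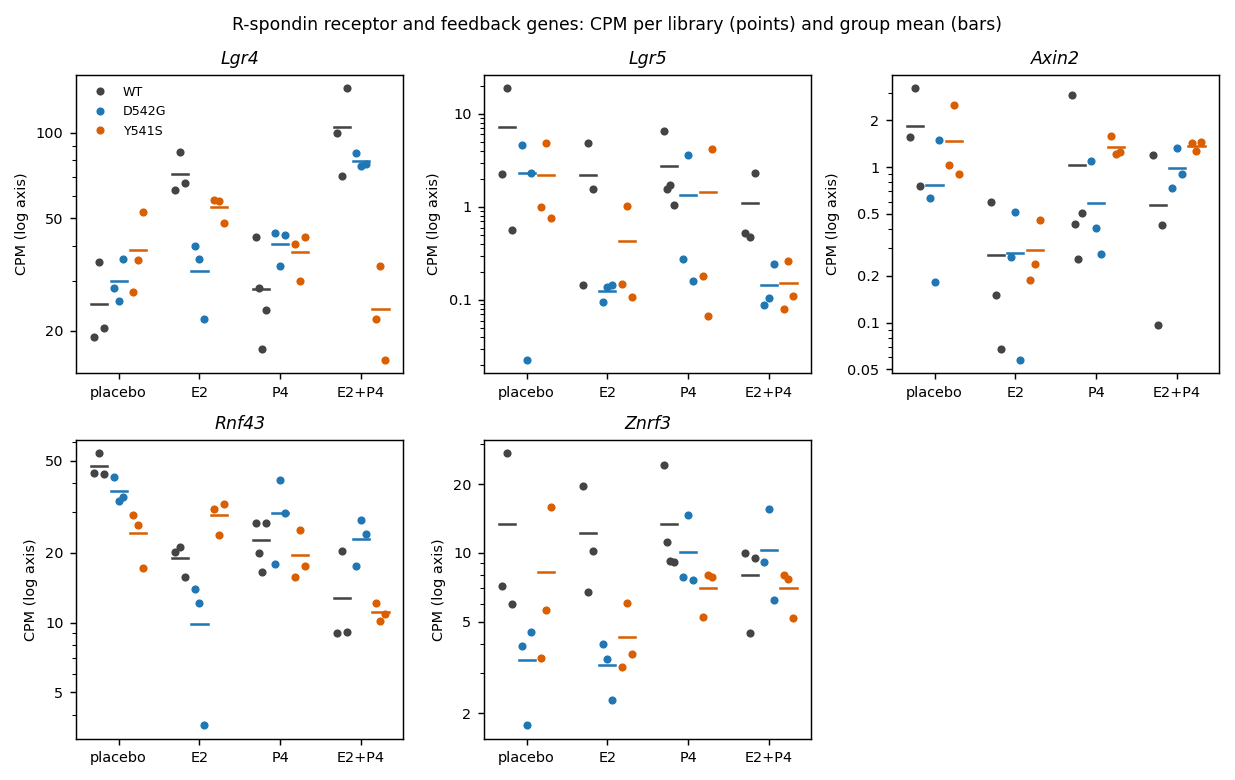
CPM on a log axis for Lgr4, Lgr5, Axin2, Rnf43 and Znrf3 in each library (points, coloured by genotype) with the group mean (bars), by treatment. Lgr4 rises with E2 in WT cells (62.8 to 86 CPM against 19.1 to 35 in placebo), Rnf43 is highest in WT placebo (43.9 to 53.8 CPM), and single WT libraries lie above the others of their groups for Lgr5, Axin2 and Znrf3.

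In 2 WT libraries high basal cell markers stood beside high Lgr5, Axin2 and Znrf3. In WT placebo 2 and WT P4 2 the 10 basal markers, all detected, summed to 914 and 823 CPM, against 59 to 87.6 CPM in the other WT placebo and 78.9 to 82.4 CPM in the other WT P4 libraries. Lgr5 was at 18.9 and 6.55 CPM in these libraries, Axin2 at 3.22 and 2.92, and Znrf3 at 27.2 and 24.2, each the highest value of its group. The mutant libraries showed no common pattern. In Y541S placebo 3, with basal markers at 5.02 log2 CPM, Lgr5 was at 4.85, Axin2 at 2.51 and Znrf3 at 5.61 CPM. In Y541S placebo 5, with basal markers at 4.87 log2 CPM, Lgr5 was at 0.755 and Axin2 at 0.899 CPM, the lowest of the group, and Znrf3 at 15.8 CPM, the highest. In Y541S E2 1, at 4.63 log2 CPM, they were at 0.147, 0.189 and 3.17 CPM. In D542G E2+P4 2, at 4.3 log2 CPM, Lgr5 was at 0.104 CPM beside 1.33 for Axin2 and 15.5 for Znrf3. The part of the basal markers in these values was not tested.

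**Figure D4:**
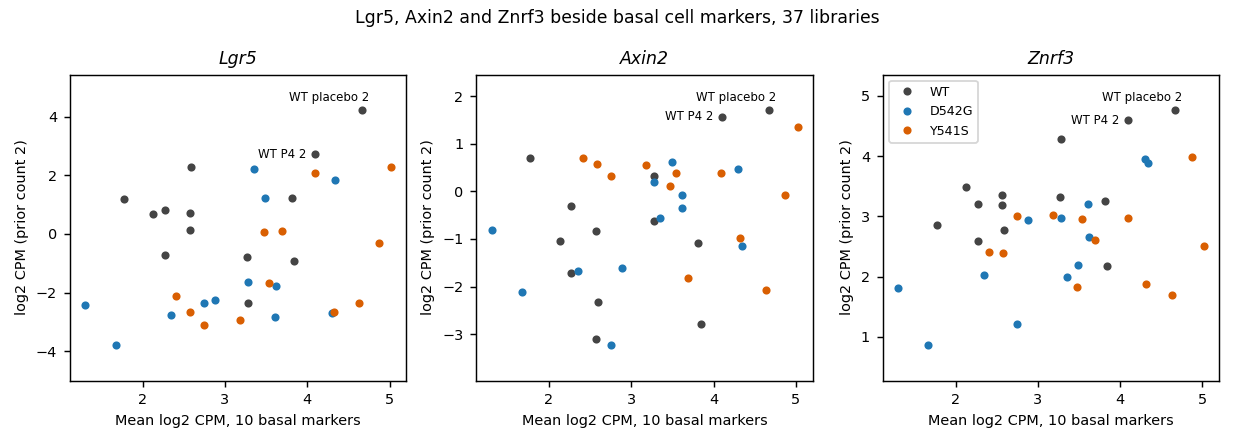
Log2 CPM (prior count 2) of Lgr5, Axin2 and Znrf3 against the mean log2 CPM of 10 basal cell markers in the 37 libraries, coloured by genotype. WT placebo 2 and WT P4 2, at 4.67 and 4.1 on the horizontal axis, lie at the top of the WT libraries in each panel, while mutant libraries at like horizontal values lie both high and low.

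The rest of the pathway was described with 8 lists of 82 genes, of which 70 were tested. In WT E2, 8 of the 70 were called higher and 15 lower (32.9%, against 31.5% of all genes). Among 10 tested other ligand genes 2 were lower, led by Wnt11 (-2.29 ± 0.38 log2, adjusted p = 3.37e-05), and 0 higher. Of the secretion genes, Wls, the carrier that takes Wnt proteins to the cell surface, fell from 354 ± 8.9 to 166 ± 47.2 CPM (-1.09 ± 0.21 log2, adjusted p = 1.88e-04). Porcn, the enzyme that attaches the lipid, rose from 24.6 ± 2.63 to 48.2 ± 27.5 CPM (0.97 ± 0.31 log2, adjusted p = 0.0188). Of 15 receptor genes 5 were lower and 1 higher; Ror2, a Wnt5a receptor, had a mean of 70.8 ± 0.842 CPM in placebo libraries and of 7.25 ± 8.04 with E2, and the coreceptors Lrp5 and Lrp6 differed by -1.42 ± 0.23 and -1.04 ± 0.17 log2. Lgr6, the third receptor of the Lgr group, rose (1.76 ± 0.39, adjusted p = 9.80e-04), as did the secreted protein gene Dkk3 (4.25 ± 0.93, adjusted p = 8.33e-04) and the repressor gene Tcf7l1 (2.49 ± 0.32, adjusted p = 1.21e-06). Among 8 tested further target genes of beta-catenin Myc and Cd44 were higher (1.68 ± 0.31 and 1.45 ± 0.36 log2) and 0 were lower.

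The other hormone groups had other leading genes. In WT P4, 1 was higher (Tcf7l1, 1.36 ± 0.29 log2) and 1 lower (Ccnd1, -1.16 ± 0.27), or 2.86% against 1.43% of all genes. In WT E2+P4, 7 were higher and 12 lower (27.1%, against 23.4%), with Ror2 at 2.47 ± 2.07 CPM (-4.86 ± 0.70 log2, adjusted p = 6e-06) and Porcn at 101 ± 35.8 CPM. In D542G cells the counts were 5 higher and 8 lower in E2 (18.6%, against 15.7% of all genes), 11 and 7 in P4 (25.7%, against 18.4%), and 12 and 10 in E2+P4 (31.4%, against 25.4%). Among the 13 tested secreted and surface inhibitor genes of D542G E2+P4, 4 were higher and 0 lower, with Dkk3 (5.34 ± 0.95 log2), Sostdc1 (3.38 ± 1.04), Sfrp5 (3.15 ± 1.03) and Sfrp2 (2.62 ± 0.86). Lgr6 was called in opposite directions in D542G E2 (-1.53 ± 0.40) and P4 (1.85 ± 0.40), and its E2 response differed from that of WT cells by -3.30 ± 0.56 (adjusted p = 3.29e-04). Ror1, an orphan receptor that binds Wnt5a, rose in D542G P4 (3.53 ± 0.72, adjusted p = 0.00116).

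In Y541S cells the counts were 1 higher and 4 lower in E2 (7.14%, against 4.65% of all genes), 3 and 7 in P4 (14.3%, against 11.3%), and 4 and 13 in E2+P4 (24.3%, against 18.5%). Porcn rose in Y541S P4 from 28.6 ± 7.34 to 186 ± 14.3 CPM (2.70 ± 0.33 log2, adjusted p = 5.92e-06), and this response differed from that of WT cells by 2.59 ± 0.43 (adjusted p = 6.20e-04). The signal relay genes Dvl1 and Axin1 fell in Y541S P4 (-2.70 ± 0.39 and -1.93 ± 0.32) and E2+P4 (-3.48 ± 0.41 and -1.91 ± 0.32), with differences from the WT P4 response of -2.78 ± 0.52 (adjusted p = 0.00153) and -2.11 ± 0.44 (adjusted p = 0.00364). Apc, another member of the beta-catenin destruction complex, fell alongside (-1.60 ± 0.33 in P4). Procr, a beta-catenin target known from mammary stem cells, fell in Y541S P4 (-4.03 ± 0.95, adjusted p = 0.00551). Ptk7 was listed at 0 and its whole span overlaps other genes, so its 0 was not read as absence.

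Between genotypes under placebo, 1 of the 70 genes was higher and 1 lower in D542G (Tcf7l1, 1.51 ± 0.31 log2; Fzd3, -1.34 ± 0.35), and 6 were higher and 3 lower in Y541S. There Tcf7l1 (2.08 ± 0.31), Dkk3 (4.71 ± 0.95) and Procr (3.11 ± 0.90) were higher, and the Frizzled genes Fzd3 (-1.89 ± 0.36) and Fzd10 (-2.70 ± 0.57) and Lrp5 (-0.98 ± 0.23) lower. These shares, 2.86% and 12.9%, stood beside 2.02% and 13.4% of all genes.

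**Figure D5:**
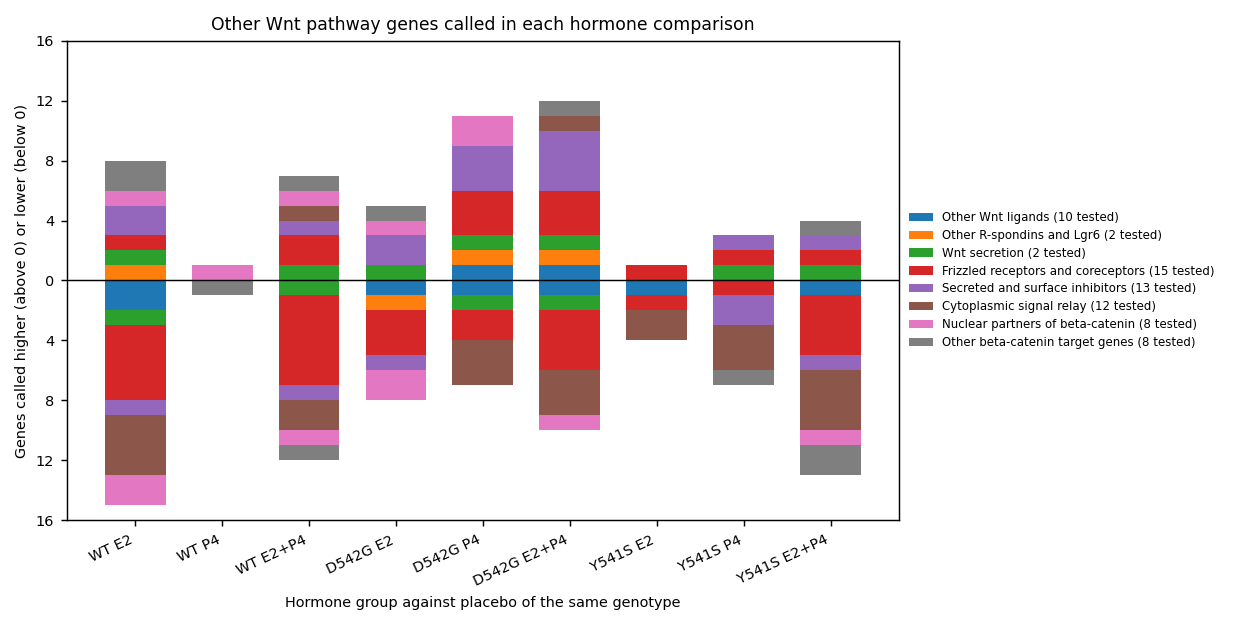
Number of other Wnt pathway genes called higher (above 0) or lower (below 0) in the 9 hormone groups relative to placebo of the same genotype, stacked by list, with the tested genes per list in the key. Bars reach 8 higher and 15 lower in WT E2, 1 and 1 in WT P4, and 12 and 10 in D542G E2+P4.

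Over the 12 group means of log2 CPM, the genes most like Wnt4, Wnt5a, Rspo1 and Lgr5 among genes of at least 2 log2 CPM were listed by Pearson's r, as a description over points that share libraries and controls. Wnt4 was most like Galnt11 (r = 0.969), 4930402H24Rik (0.96) and Zfr2 (0.957). Wnt5a was most like Dsc2 (0.96), Ehbp1l1 (0.939) and Tapt1 (0.923). Rspo1 was most like Ror1 (0.977), Emid1 (0.967) and B3glct (0.964). Lgr5 was most like Junos (0.898), Kansl1l (0.894) and Mbp (0.882). Among the members themselves, r was -0.79 between Wnt5a and Rspo1, 0.76 between Wnt5b and Rspo1, -0.72 between Wnt7b and Rspo1 and 0.73 between Wnt7b and Lgr5. The other pairs lay between -0.63 and 0.62.

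The 12 groups were also ordered by mean level, where a gap means that neighbouring groups did not overlap and is not a test. Wnt4 ran from 421 ± 50.3 CPM in WT P4 (n = 4) to 19.5 ± 9.43 in D542G E2, and each neighbouring pair of groups in that order overlapped. Wnt5a ran from 901 ± 210 CPM in D542G E2 to 40.2 ± 15.7 in D542G E2+P4, and the 4 mutant groups without P4 stood above all WT groups, with a gap between D542G placebo and WT P4. Wnt5b ran from WT E2, at 432 to 639 CPM, to 19.9 ± 2.70 in D542G E2, with a gap between WT placebo and D542G placebo. Wnt7b ran from 475 ± 8.61 CPM in D542G placebo to 85.0 ± 21.9 in D542G E2+P4, the latter below WT E2+P4 without overlap. Rspo1 ran from 199 ± 52.7 CPM in D542G E2+P4 to 0.413 ± 0.097 in D542G placebo, with gaps below Y541S P4, WT P4 and WT placebo. Lgr4 ran from 105 ± 36.7 CPM in WT E2+P4 to 24.0 ± 9.23 in Y541S E2+P4, with gaps on either side of Y541S E2. Rnf43 ran from 47.3 ± 5.61 CPM in WT placebo to 9.90 ± 5.54 in D542G E2, with a gap below WT placebo. For Lgr5 (7.24 ± 10.1 to 0.126 ± 0.0261 CPM), Axin2 (1.85 ± 1.25 to 0.271 ± 0.284) and Znrf3 (13.5 ± 12 to 3.25 ± 0.887) every neighbouring pair overlapped. The gaps between WT and D542G placebo for Wnt5b, Rspo1 and Rnf43 lay between groups whose difference did not pass (adjusted p = 0.315, 0.795 and 0.8).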

How the data were processed

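RNA-seq gene tables of 37 libraries were used, each holding a count and an RPKM value per gene. The counts are the authors' deposited raw counts per gene, and the build is GRCm38 per the submitters' processing notes; the aligner, the counter and the use of strand are not given in the sources used here. RPKM values, which the authors deposited beside the counts, were not tested. The width in the tables equals the genomic span with introns for 85.6% of genes, so counts may include intronic reads, and reads from genes that overlap cannot be told apart. Symbols were paired with 52403 of the 52636 identifiers. Library totals were 25.69 to 52.24 M counts (median 41.26 M).

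Counts of all 37 libraries were fitted in 1 model with a coefficient per group by edgeR 4.0.16 under R 4.3.3 (quasi-likelihood test, filterByExpr, TMM factors of 0.77 to 1.17, common biological coefficient of variation 0.458, 25 residual degrees of freedom). P-values were adjusted by Benjamini-Hochberg over 18426 genes and called under 0.05. The SE is the absolute log2 difference divided by the square root of F. Log2 CPM used a prior count of 2. The procedure was tested on simulated data.

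The 10 members are all named. From each pathway list up to 4 called genes with the smallest p and a mean of at least 0 log2 CPM could be named. The genes most like Axin2 are not reported here. The members, lists and tests were chosen with earlier results of these data known. Alternatives were DESeq2 1.42.0, RLE factors, library totals only, no filter, the sample number as a block, only the groups compared, the first identifier series and each library left out. Apart from that block, sample numbers were not used to pair libraries.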

Additional observations from a re-analysis of the deposited data

Results flagged for a closer look

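In WT P4, the only group with more than 3 libraries, replicate 2 lay far from the other 3 libraries for 3 of the 10 genes. Lgr5 was at 6.55 CPM there, Axin2 at 2.92 CPM and Znrf3 at 24.2 CPM. Chance sets apart about 1 in 20 such groups, and 10 were examined. This library also had the highest basal marker level of its group, 4.1 log2 CPM.

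Of 60 tests of a difference between the hormone response of a mutant and that of WT cells, 12 passed. Over all genes 3.35% to 9.23% passed in these comparisons. Under E2 the D542G response differed by -3.60 log2 for Wnt5b and -1.41 for Lgr4. Under P4 it differed by -2.73 for Wnt5a, 3.22 for Wnt5b and -1.12 for Wnt7b, and under E2+P4 by -2.48 for Wnt5a. For Y541S the E2 response differed by 2.82 log2 for Wnt4, -6.25 for Rspo1 and 1.58 for Rnf43. The P4 response differed by -4.03 for Wnt5a, and the E2+P4 response by -2.73 for Wnt5a and -2.76 for Lgr4. Calls kept under all alternatives run were those of Wnt5b in D542G and of Wnt5a and Lgr4 in Y541S cells. Each of the others was lost at least once.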

How the results depend on the processing

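Of 54 called results of the 10 genes, 35 kept their call and direction under all alternatives run, 19 lost the call at least once and 0 reversed. The number of members called stayed within 1.5 times in 8 of 20 comparisons. DESeq2 called 2 members in WT P4 (0 in edgeR), 1 in Y541S E2 (0), 2 in Y541S P4 (1), 6 in Y541S E2+P4 (3), 2 in D542G against WT placebo (0) and 3 for the E2+P4 response of D542G (1). Fitting only the groups compared called 1 in WT P4, 5 in Y541S E2+P4, 1 in WT E2+P4 against E2 (3), 1 in D542G against WT placebo, 1 for the E2 response of D542G (2), 1 for that of Y541S (3) and 1 for non-additivity (2). Without the filter on low counts the numbers were 3 in WT E2+P4 against P4 (5), 1 for the E2 response of D542G and 1 for non-additivity. The first identifier series alone gave 2 in Y541S E2, 3 in Y541S P4, 3 in WT E2+P4 against P4 and 0 for the E2 response of Y541S. Library totals only gave 4 for non-additivity, and shifted the median of all genes by over 0.1 log2 in 10 of 20 comparisons (-0.26 to 0.37). With single libraries left out, members called were 0 to 2 in Y541S E2, 1 to 3 in Y541S P4, 2 to 5 in Y541S E2+P4, 2 to 5 in WT E2+P4 against P4, 1 to 3 for the E2 and 1 to 3 for the P4 response of D542G, 0 to 2 for its E2+P4 response, 0 to 3 for the E2 response of Y541S and 0 to 3 for non-additivity.

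The fit with a replicate block called 1 member in Y541S E2, 2 in Y541S P4, 3 in WT E2+P4 against P4, 1 for the E2 response of Y541S and 0 for non-additivity; for all genes it called 79 in WT P4, 349 for the P4 response of Y541S and 1331 for non-additivity. Same-number libraries showed no common likeness: 16 of 178 same-number pairs had r over 0.1 (-0.61 to 0.68, median 0.01, over 2000 genes). These values cannot tell whether single pairs, such as WT placebo 2 and WT P4 2, share a source.

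Counts over all genes moved more than 1.5 times in 17 comparisons. DESeq2 called 746 genes in WT P4 (263 in edgeR), 1439 in Y541S E2 (857), 665 in D542G against WT placebo (372), and for the responses 1264 (D542G P4, 617), 1435 (D542G E2+P4, 792) and 2098 (Y541S P4, 1350). Fitting only the groups compared called 3139 in WT E2 (5796), 408 in WT P4, 2175 in D542G P4 (3385), 0 in Y541S E2, 1160 in Y541S P4 (2077), 1922 in Y541S E2+P4 (3417), 892 in WT E2+P4 against E2 (3406), 952 in Y541S against WT placebo (2469), 394 for the Y541S E2 response (1478) and 933 for its E2+P4 response (1599). No filter gave 160 in WT P4. The first identifier series gave 1743 in Y541S E2, 2792 in WT E2+P4 against P4 (4274), 941 for the Y541S E2 response and 510 for its P4 response. Left-out libraries gave 22 to 384 in WT P4, 1817 to 2440 in D542G E2 (2893), 1723 to 3295 in D542G P4, 299 to 1786 in Y541S E2, 1167 to 2191 in Y541S P4, 2202 to 3657 in Y541S E2+P4, 2028 to 3715 in WT E2+P4 against E2, 168 to 261 in D542G and 1487 to 2422 in Y541S against WT placebo. For the responses they gave 229 to 733 (D542G P4), 382 to 1271 (D542G E2+P4), 909 to 1639 (Y541S E2), 692 to 1552 (Y541S P4) and 1229 to 2394 (non-additivity, 2099). The cause was not tested. Lgr5 and Axin2 rest on 1 to 740 and 2 to 127 counts per library, which limits their precision.

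Apart from left-out libraries, some named calls were lost. With only the groups compared these were Axin2 in WT E2, Wnt4 in WT E2+P4, Rspo1 in WT E2+P4 against P4, Wnt4 and Wnt7b in WT E2+P4 against E2, Rspo1 in Y541S against WT placebo, Lgr4 in the E2 response of D542G, Wnt4 and Rspo1 in that of Y541S, and Wnt4 in non-additivity. The replicate block lost Znrf3 in D542G E2+P4, Wnt5a and Rspo1 in WT E2+P4 against P4, Rspo1 in Y541S against WT placebo, Rspo1 and Rnf43 in the E2 response of Y541S, and Wnt4 and Wnt5b in non-additivity. Without the filter the calls of Wnt4 in WT E2+P4, Znrf3 in D542G E2+P4, Wnt5a and Rspo1 in WT E2+P4 against P4, Rspo1 in Y541S against WT placebo, Lgr4 in the E2 response of D542G, Rnf43 in that of Y541S and Wnt5b in non-additivity were lost. Library totals only lost Wnt7b in the P4 response of D542G, and RLE factors lost Rnf43 in the E2 response of Y541S. The first identifier series alone lost Wnt5a and Rspo1 in WT E2+P4 against P4, Rspo1 in Y541S against WT placebo, Wnt4, Rspo1 and Rnf43 in the E2 response of Y541S, and Wnt4 in non-additivity.

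Other calls were gained. Beside those given in the report, DESeq2 added Rnf43 in Y541S against WT placebo, and Znrf3 in D542G against WT placebo and in the E2+P4 response of D542G. Fitting only the groups compared added Wnt5a in D542G E2 (1.09 log2, adjusted p = 0.0234) and Wnt5b in WT E2+P4 against P4 (0.93, adjusted p = 0.0478). Library totals only added Wnt7b in non-additivity and in the E2+P4 response of Y541S. The first identifier series added Wnt5b in Y541S E2, Wnt7b in Y541S E2 and P4, and Rspo1 in Y541S P4 and E2+P4. The replicate block added Lgr5 in D542G E2+P4 (-4.67, adjusted p = 0.0409), Wnt4 in Y541S E2+P4 (-1.74, adjusted p = 0.0345), Wnt5b in Y541S E2 and Wnt7b in Y541S P4.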
